A study of Mus musculus with 3 samples.

Results

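The ribosomal RNA genes examined here are all genes of biotype rRNA on chromosomes 1 to 19 and X in a RefSeq gene table of the mouse build mm10 (GRCm38.p6). The rule took 63 genes, of which 62 are among the 49331 genes that the table places on those chromosomes. They comprised 48 copies of the 5S rRNA gene in a tandem array on chromosome 8, 13 copies of the 5S gene dispersed over 10 chromosomes, the 4.5S gene Rn4.5s on chromosome 6, and Rn28s1. Rn28s1 could not be read. Its listed start on chromosome 11, at 112627, lies before the first gene placed there (3124002) and before the first peak (3100229), and its row stands among separately numbered scaffolds. All values below refer to the other 62 genes.

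The rule set the array apart by a range on chromosome 8, 123.55 to 123.63 Mb. That range held 41 of the 48 array copies. The other 7, n-R5s100 to n-R5s106, lay directly before it at the same spacing, so counts are given for the range, for the whole array and for the remaining genes.

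5S rRNA is a structural RNA of the large ribosomal subunit. It is transcribed by RNA polymerase III from short genes whose control elements lie inside the transcribed sequence, where TFIIIA binds and recruits TFIIIC and TFIIIB. The larger rRNAs come from a single precursor made by RNA polymerase I in the nucleolus from rDNA repeats, which the gene table does not place on these chromosomes. 4.5S RNA is a small rodent RNA polymerase III transcript that associates with polyadenylated RNA, and it carries the biotype rRNA in the table although it is not a known ribosome component.

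H3K27ac, histone H3 acetylated at its lysine 27 and found at promoters and enhancers in use, was mapped by chromatin immunoprecipitation in thymocytes of wild-type C57BL/6J mice 5 to 7 weeks old. The cells were sorted CD4-CD8- double negative thymocytes, CD25+ and CD44-/+, processed right after sorting. Chromatin was first enriched with an antibody to histone H3 and given sequencing adapters, then enriched for H3K27ac. There were 2 replicates of H3K27ac and 1 input, set aside before that last step. Since the input was not analysed here, the peaks have no control values beside them. Whether the replicates came from separate animals is not given in the sources used here, and how many mice were pooled is not either.

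On the chromosomes examined, replicate 1 had 12228 peaks and replicate 2 had 9429. The fold enrichment of each peak and its −log10 p and −log10 q are the authors' values. Peaks with q of at most 0.05 made up 27.3% of the list of replicate 1 and 41.1% of that of replicate 2. Of 10 marker genes of double-negative thymocytes, 4 had a peak of each replicate within 1 kb of a gene end, where the share of protein-coding genes was 17%. The folds were 2.51 and 2.21 at Dntt and 3.12 and 2.28 at Tcf7, against 1.14 and 1.20 at Cd3e and 1.23 and 1.05 at Cd3g. By −log10 q the order was reversed. It was 1.43 and 0.94 at Dntt and 2.19 and 0.92 at Tcf7, against 5.98 and 5.67 at Cd3e and 6.78 and 2.65 at Cd3g. The peaks of the replicates overlapped at Cd3e but not at Cd3g. Ptcra and Bcl11b had a peak in replicate 1 alone, Il2ra, which encodes CD25, in replicate 2 alone, and Cd44, Rag1 and Rag2 in neither. None of the 13 markers of later thymocytes, B cells, myeloid cells and stroma had a peak at a gene end in either replicate. The share of protein-coding genes with a peak in either replicate is not given here. How far this count departs from other coding genes therefore cannot be read.

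The 5S array was densely covered by H3K27ac peaks in both replicates. The 48 copies ran from 123538784 to 123622046 on chromosome 8, a span of 83.3 kb. Peaks covered 41.6% of it in replicate 1 and 35.4% in replicate 2. Both replicates covered 17.9% of the array, and either covered 59.1%. In flanks of the same length, set 2 kb off, replicate 1 covered 0.867% before the array and 0.932% after it, and replicate 2 covered 0.854% and 0%.

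Outside the array the peaks stopped. The nearest peak before the array ended 60.2 kb away in both replicates, at the start of Afg3l1, which encodes a mitochondrial protease subunit. The first peak after it began 26.4 kb away in replicate 1, at the lncRNA Gm35930, and 159.7 kb away in replicate 2. Gas8, the protein-coding gene next to the array at 2127 bp, had no peak within 1 kb of either end.

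**Figure D1:**
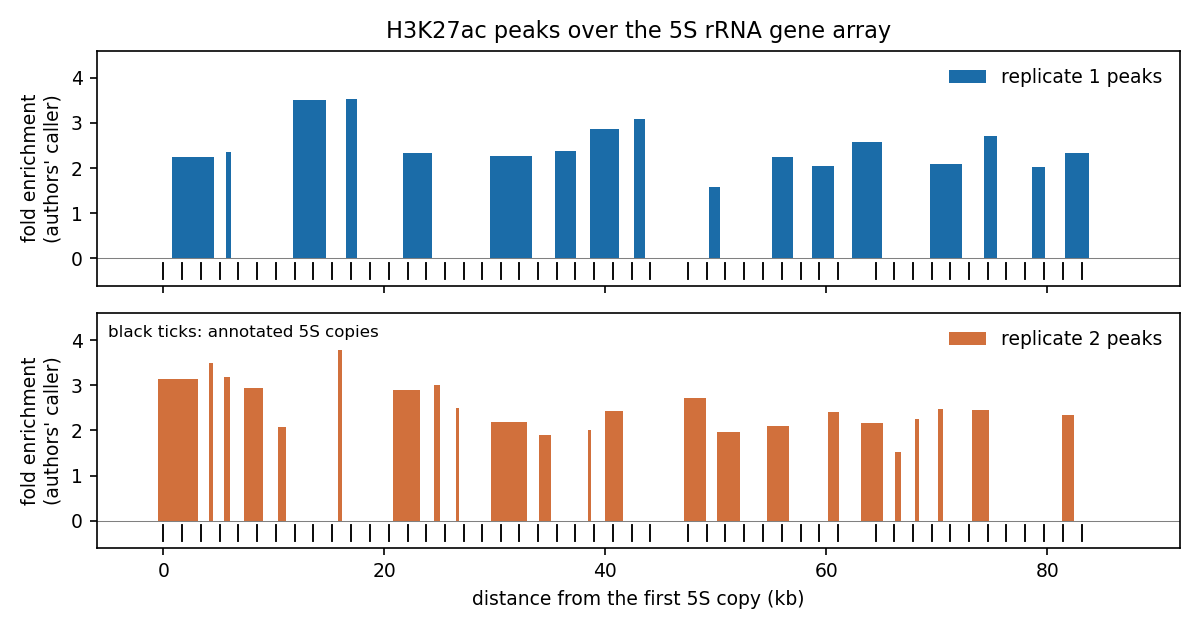
Fold enrichment of each peak (y axis, the authors' ratio) against distance from the first 5S copy in kb (x axis), for replicate 1 (upper panel, 17 peaks) and replicate 2 (lower panel, 23 peaks). Bar width is peak width and black ticks mark the 48 annotated copies. Peaks occur from the first to the last copy, with no peak in the plotted stretches beyond.

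Replicate 1 had 17 peaks in the array, with folds from 1.58 to 3.53 and a median of 2.33. Replicate 2 had 23, with folds from 1.51 to 3.79 and a median of 2.43. These levels were near the medians of all peaks, 2.18 in replicate 1 and 2.31 in replicate 2. The array peaks were wider than most. The median width was 2001 bp in replicate 1, against 618 bp over its list, and 1095 bp in replicate 2, against 562 bp. The widest 10% of peaks began at 1503 bp in replicate 1 and 1342 bp in replicate 2, and 11 of 17 and 10 of 23 array peaks were in that class.

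By the caller's statistics the array peaks were near the middle of their lists. Their −log10 p ran from 1.60 to 4.77 in replicate 1 and from 1.53 to 5.98 in replicate 2. The median −log10 q was 1.07 in replicate 1, against 0.846 over its list, and 0.976 in replicate 2, against 1.12. In replicate 1, 5 of 17 array peaks had q of at most 0.05, where the share of the list was 27.3%. In replicate 2 it was 7 of 23, where the share of the list was 41.1%. All 7 of replicate 2 lay among the first 16 copies, next to Gas8, where its median fold was 3.07. Over the middle 16 copies the median fold of replicate 2 was 2.10, and over the last 16 it was 2.35. In replicate 1 the medians over the same copies were 2.36, 2.39 and 2.24, and its 5 peaks with such a q were spread as 2, 2 and 1. These differences along the array were not tested.

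Single copies differed between the replicates. A peak lay within 1 kb of 38 of the 48 copies in replicate 1 and of 40 in replicate 2. Both replicates had one at 31 copies (64.6%), replicate 1 alone at 7, replicate 2 alone at 9 and neither at 1, n-R5s111, whose nearest peaks were at 1225 bp and 1965 bp. Either replicate thus had a peak at 47 copies, where the share over all placed genes was 23.7% and over those of at most 200 bp 9.01%. With 38 and 40 of 48 copies called, a large overlap is forced by these counts. The 31 shared copies therefore do not show agreement in position, which was not tested. The copies with a peak of replicate 1 alone were n-R5s108, n-R5s122, Gm24312, n-R5s134, Gm25212, n-R5s146 and Gm22291. Those with one of replicate 2 alone were n-R5s105, n-R5s106, n-R5s112, n-R5s115, Gm25018, n-R5s128, n-R5s131, n-R5s139 and Gm22109. At these copies the peak of the other replicate lay between 1053 bp (n-R5s122) and 3163 bp (n-R5s146) away. In the range of the rule the count for both was 26 of 41 (63.4%), and among the 7 copies before it 5.

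The copies themselves, of 119 or 121 bp, were overlapped less often. A peak overlapped 21 copies in replicate 1 and 16 in replicate 2, but only 8 in both. These were n-R5s101, n-R5s113, n-R5s118, n-R5s119, n-R5s124, n-R5s133, n-R5s138 and n-R5s144, spread over the whole array. The first copy, n-R5s100, lay under a peak of replicate 2 (fold 3.14, −log10 q 2.19) and 692 bp from a peak of replicate 1 (fold 2.26, −log10 q 1.07). The last, n-R5s149, lay under a peak of replicate 1 (fold 2.33, −log10 q 1.42) and 734 bp from one of replicate 2 (fold 2.35, −log10 q 0.864). Rn5s, the copy that bears the family's symbol, lay under a peak of replicate 1 (fold 2.05) and 664 bp from one of replicate 2 (fold 2.40).

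The widest stretch shared by the replicates lay over n-R5s118 and n-R5s119. There a peak of replicate 2, 123568420 to 123571689 (fold 2.19), lay wholly inside one of replicate 1, 123568306 to 123572128 (fold 2.27). The tallest peak of each replicate overlapped none of the other. The tallest peaks of replicate 1 were over n-R5s110 (fold 3.53) and over n-R5s107 and n-R5s108 (fold 3.52), and neither overlapped a peak of replicate 2. The tallest of replicate 2, between n-R5s109 and n-R5s110 (fold 3.79), overlapped none of replicate 1. Its next tallest, 123542938 to 123543258 (fold 3.50), lay wholly inside a peak of replicate 1 (fold 2.26). In all, 12 of 17 peaks of replicate 1 and 14 of 23 of replicate 2 overlapped a peak of the other. Of the bases covered in replicate 1, 43.0% were also covered in replicate 2, and of those in replicate 2, 50.5% in replicate 1.

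Within the repeat, no position stood out, but the peaks were too wide for a fine reading. Neighbouring copies started a median of 1698 bp apart (1665 to 3390 bp). Both longest spacings, over 3 kb, hold a 5S pseudogene in place of a copy. When all copies were aligned on the gene, between 15 and 23 of the 48 were covered by replicate 1 at any offset within 0.8 kb, with 20 at the gene centre. For replicate 2 the range was 14 to 21, with 14 at the centre, its lowest value. At 2001 bp the median array peak of replicate 1 was longer than the median spacing, and a peak of that width covers every offset. In replicate 2 the median width was 1095 bp. Whether the genes and the stretches between them differ in acetylation therefore cannot be read from these counts. Of the peaks, 3 of 17 in replicate 1 and 9 of 23 in replicate 2 overlapped no annotated copy. The pseudogene Rn5s-ps1 lay under a peak of replicate 1 and 270 bp from one of replicate 2, while n-R5s127 had its nearest peaks at 2149 bp and 1248 bp.

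The window of 1 kb on each side is wider than the spacing, so a single peak was counted for up to several copies, and the copies are not independent. Beside these counts, 12.0% of all placed genes had a peak of each replicate within 1 kb (19.4% in replicate 1, 16.3% in replicate 2). Long genes gather more peaks under that rule. Among placed genes of at most 200 bp, a class that holds all 62 rRNA genes, 4.37% were called in both (6.88% in replicate 1 and 6.51% in replicate 2), and 1.76% were overlapped by a peak of each (3.65% and 3.07%). The rRNA genes supplied part of this share, which was 3.76% without them. No test was made, since the list is short, its copies share peaks and there is a single group of samples.

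Other short RNA genes gave a scale. Of 403 tRNA genes, also transcribed by RNA polymerase III, 32 (7.94%) had a peak of each replicate within 1 kb. The shares were 2.81% of 996 snRNA genes, 3.83% of 1330 snoRNA genes and 4.07% of 1228 miRNA genes. In each of these classes the share was higher beside a coding gene end. Of the 49 tRNA genes with a coding gene end within 1 kb, 34.7% were called in both, against 4.59% of the 327 that had neither such an end nor a surrounding coding gene. All 48 array copies belonged to the latter setting, and 31 were called.

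**Figure D2:**
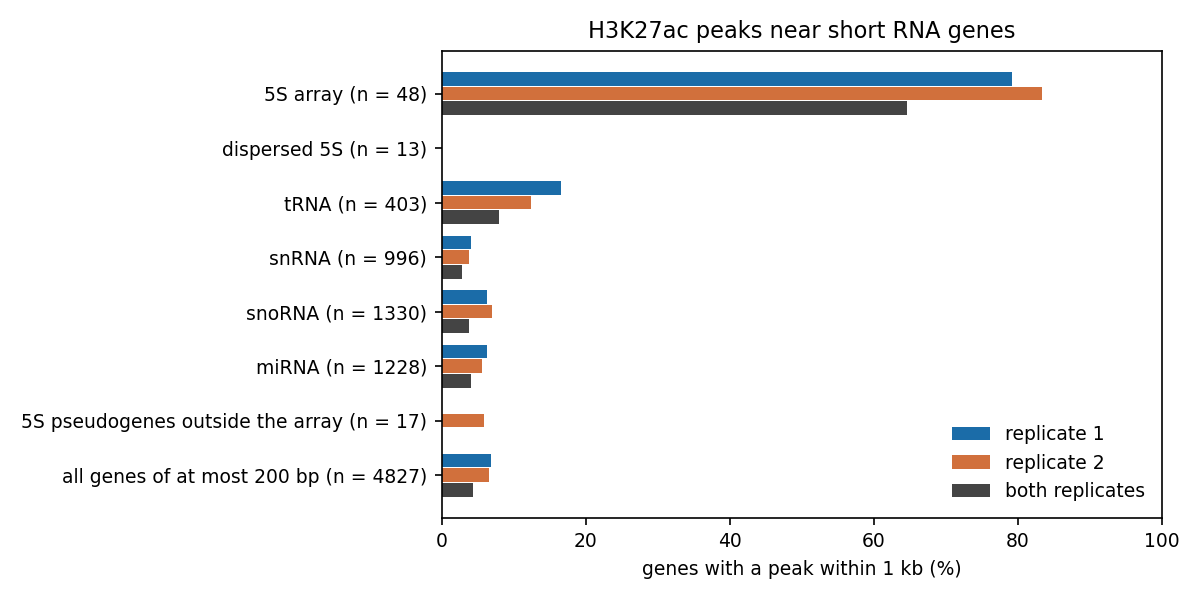
Percentage of genes (x axis) with a peak within 1 kb in replicate 1, in replicate 2 and in both, for the 5S array, the dispersed 5S copies, other short RNA gene classes and all genes of at most 200 bp (rows, with the number of genes). The array stands at 79.2%, 83.3% and 64.6%, and the dispersed copies at 0%.

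The array also held the longest run of peaks when gaps of 5 kb or 10 kb were allowed, but not with shorter gaps. When peaks of either replicate were joined across gaps of up to 5 kb, a distance chosen after seeing the data, the run over the array measured 84.3 kb, first of 15665 runs. The next was a run of 44.5 kb on chromosome 6. The longest gap inside the array was 3514 bp. With gaps of up to 10 kb the run stayed at 84.3 kb and first. With gaps of up to 3 kb it broke into pieces, of which the longest measured 28.4 kb and ranked 4, and with 2 kb the longest measured 20.8 kb and ranked 5. In fixed tiles of 100 kb, the tile holding most of the array had 25001 bp covered in replicate 1 and 23967 bp in replicate 2. It ranked 2 of 26326 in each replicate, and 4 by the 11407 bp covered by both.

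**Figure D3:**
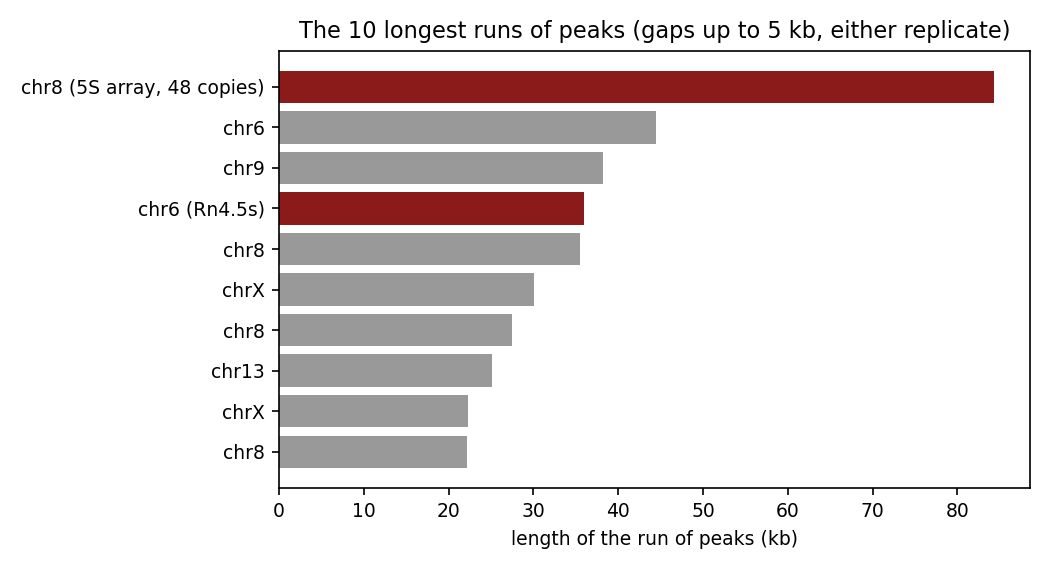
Length in kb (x axis) of the 10 longest runs of peaks of either replicate joined across gaps of up to 5 kb (rows, by chromosome). Runs that hold rRNA genes are dark red: the 5S array at 84.3 kb and the run over Rn4.5s at 36.0 kb.

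The dispersed 5S copies had no peak nearby. None of the 13 had a peak within 1 kb in replicate 1 or in replicate 2, against 6.88% and 6.51% of genes of at most 200 bp. At such shares about 1 of 13 genes would be called, so the count of 0 does not set the dispersed copies apart from other short genes. The distance to the nearest peak ran from 3.77 kb to 908.8 kb in replicate 1, with a median of 54.1 kb, and from 11.5 kb to 1607 kb in replicate 2, with a median of 68.5 kb. Over all placed genes of at most 200 bp the medians were 49.2 kb and 61.0 kb, near those of the dispersed copies.

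The copy nearest to a peak was n-R5s25 on chromosome 18, inside Cdc23, which encodes a subunit of the anaphase-promoting complex. Its nearest peak was at 3.77 kb in replicate 1 (fold 1.82, −log10 q 0.580) and at 22.5 kb in replicate 2 (fold 4.09, −log10 q 4.36). For n-R5s28 on chromosome 17 the distances were 11.7 kb and 45.3 kb. For LOC115488082 on chromosome 12, next to Batf, which encodes an AP-1 family transcription factor, they were 12.9 kb and 14.5 kb, to overlapping peaks of the replicates. For n-R5s151, inside the transcription factor gene Npas1, they were 12.8 kb and 68.5 kb. The copy n-R5s211 on chromosome 1 lay 646 bp from an end of Dnah7b, a dynein gene, and its nearest peaks were at 377.7 kb and 11.5 kb.

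The other dispersed copies lay at least 25.6 kb from a peak in each replicate. Both replicates had overlapping peaks near n-R5s33, inside Lrch3, at 54.1 kb and 54.3 kb, and near n-R5s162 on chromosome 6, at 62.2 kb and 61.9 kb. The peak of replicate 1 near n-R5s162 was tall (fold 9.05, −log10 q 26.9), while that of replicate 2 had a fold of 2.44. For n-R5s13 the distances were 25.6 kb and 96.2 kb, for n-R5s195 27.9 kb and 1109 kb, and for LOC115490001, inside Tmem38b, 110.5 kb and 249.1 kb. For n-R5s58, inside Akap6, they were 116.5 kb and 441.8 kb, and for n-R5s194 168.5 kb and 144.3 kb. The copy n-R5s2 on the X chromosome was the most distant, at 908.8 kb and 1607 kb.

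Of 17 annotated 5S pseudogenes outside the array, none had a peak within 1 kb in replicate 1 and n-R5s41 alone had one in replicate 2, at 647 bp. At the shares of genes of at most 200 bp, 6.88% and 6.51%, about 1 of 17 would be called, so these counts do not set the pseudogenes apart. All 13 dispersed copies are 119 bp long, as are 16 of the array copies, while the other 32 array copies are 121 bp. The dispersed copies rest on predicted RefSeq transcripts in every case, and 32 array copies on curated ones. Whether the dispersed copies are transcribed cannot be read from these files.

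Rn4.5s was the only rRNA gene outside the array with peaks. A peak of each replicate lay over the gene, at 47654923 to 47660370 in replicate 1 and 47653405 to 47656156 in replicate 2. Their folds were 2.25 and 2.75 and their −log10 q were 1.93 and 1.81, so both had q of at most 0.05. They shared 1234 bp. At 5448 bp and 2752 bp they were among the widest 1% of peaks in their lists. The only other rRNA genes with such peaks of both replicates within 1 kb were n-R5s109 and n-R5s110 of the array.

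The peaks over Rn4.5s belonged to a dense stretch. The run around the gene measured 36.0 kb (47650864 to 47686832), of which replicate 1 covered 65.1%, replicate 2 47.1% and both 33.7%. After 50.8 kb without a peak in either replicate, a second run of 44.5 kb followed, with 49.9%, 44.1% and 30.8% covered. Replicate 1 had 5 and 9 peaks in these runs and replicate 2 had 12 and 11, with median folds between 2.19 and 2.73. The gene lies inside Gm40369, and the other coding genes that the table lists in these runs, Gm40367, Gm40365, Gm36327, Gm40364 and Gm40363, also carry provisional symbols. The second run ended at a peak of replicate 1 over Rny3, the gene of the small Y3 RNA, another RNA polymerase III transcript. The 2 tiles of 100 kb that hold these runs ranked 2 and 3 of 26326 by bases covered in both replicates.

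**Figure D4:**
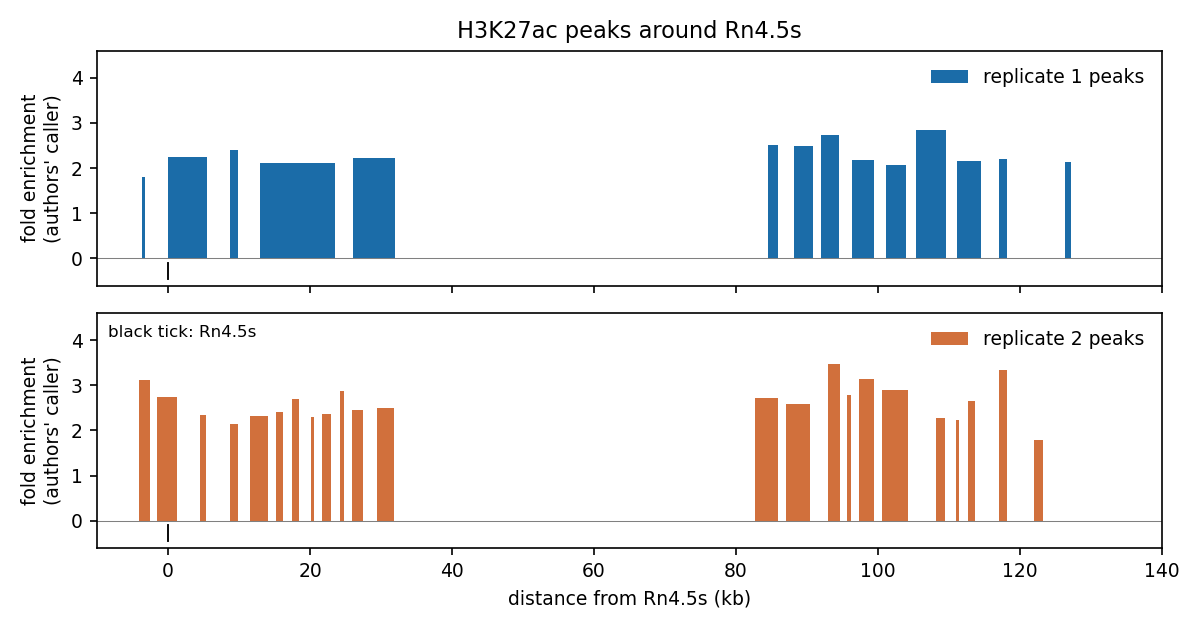
Fold enrichment of each peak (y axis, the authors' ratio) against distance from Rn4.5s in kb (x axis), for replicate 1 (upper panel) and replicate 2 (lower panel). Bar width is peak width and the black tick marks the gene. Peaks form 2 dense stretches, with none in the 50.8 kb between them in either replicate.

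Repeated copies limit what a peak at any single rRNA gene can show. A read that fits several copies can be placed at any of them or dropped, and how such reads were handled is not given in the sources used here. Annotated 5S genes make up 6.94% of the array and the rest lies between copies, 5S pseudogenes included. The sequences of the copies and of the stretches between them were not used here. How alike the copies are, and how alike the stretches are, was therefore not measured. Acetylation, the placement of reads and the number of copies in the mice cannot be told apart in a list of peaks without the input, for the array and for Rn4.5s alike.

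No precursor rRNA gene could be read. Rn18s-rs5, a pseudogene on chromosome 17 named after 18S rRNA and no member of the set, had its nearest peak at 277.7 kb in replicate 1 and 164.7 kb in replicate 2.

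Genes that make and process rRNA were read at their gene ends. Of 66 listed genes, 22 (33.3%) had a peak of each replicate within 1 kb of an end, against 17% of 21589 protein-coding genes. Replicate 1 had such a peak at 36 and replicate 2 at 30. No test was made, and the count at q of at most 0.05 was 3. The shares of protein-coding genes for a single replicate or at that q are not given here. Whether those counts differ from other coding genes therefore cannot be read.

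Of 23 genes of RNA polymerase III transcription, 8 were called in both replicates. Gtf3a, which encodes TFIIIA, the factor specific to 5S genes, had folds of 2.31 in replicate 1 and 1.85 in replicate 2. Of the 6 TFIIIC subunit genes, Gtf3c2 (1.90 and 2.07) and Gtf3c6 were called. At the promoter end of Gtf3c6 the folds were 2.03 and 2.31, and replicate 1 alone had a further peak at the other end (2.33). Gtf3c1 had a tall peak in replicate 1 alone (fold 5.03) and Gtf3c4 one in replicate 2 alone (fold 3.65). Ssb, which encodes the La protein that binds the ends of new RNA polymerase III transcripts, had folds of 2.62 and 3.12. Maf1, a repressor of the polymerase, had 2.27 and 2.55. Among polymerase subunits, Polr3e (3.53 and 3.27), Polr3d (1.93 and 2.09) and Polr3c (1.59 and 2.67) were called. Brf1 and Bdp1, which encode parts of TFIIIB, and Polr3a, which encodes the largest subunit, had none at a gene end in either.

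The RefSeq table of promoter sequences (GRCm38.p6) holds no entry for the rRNA genes. It has the promoters of 19 of the 22 called genes, and those of the factors that bind 5S genes are shown as the 250 bases before the annotated start. Capitals mark matches, on either strand, to CCGGAAG (the core of ETS family sites), to GCATGCGC (part of the NRF1 site) or to TATAAA. These occur in 6.91%, 2.26% and 12.4% of 32851 promoters of the same length. The promoters of Gtf3c2 (chr5:31180145-31180394, minus strand) and Gtf3c6 (chr10:40257713-40257962, minus strand) lay wholly under peaks of both replicates. That of Gtf3a (chr5:146948407-146948656, plus strand) shared 5 bp with the peak of replicate 1 and none with that of replicate 2.
Gtf3a: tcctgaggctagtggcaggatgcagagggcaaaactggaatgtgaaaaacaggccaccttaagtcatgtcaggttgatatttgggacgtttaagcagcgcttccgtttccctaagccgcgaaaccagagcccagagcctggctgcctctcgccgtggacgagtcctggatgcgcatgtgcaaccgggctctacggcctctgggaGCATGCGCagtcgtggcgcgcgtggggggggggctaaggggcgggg
Gtf3c2: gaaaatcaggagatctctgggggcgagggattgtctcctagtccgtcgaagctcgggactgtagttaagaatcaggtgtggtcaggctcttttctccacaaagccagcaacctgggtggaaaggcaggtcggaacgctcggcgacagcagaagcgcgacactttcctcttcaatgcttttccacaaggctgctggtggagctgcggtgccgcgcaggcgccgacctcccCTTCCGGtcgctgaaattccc
Gtf3c6: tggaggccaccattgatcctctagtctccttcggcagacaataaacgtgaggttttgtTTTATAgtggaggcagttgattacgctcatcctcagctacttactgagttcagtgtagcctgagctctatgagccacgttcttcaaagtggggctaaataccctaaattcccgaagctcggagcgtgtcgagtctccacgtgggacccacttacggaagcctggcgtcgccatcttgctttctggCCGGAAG
The promoter of Gtf3a held a match to GCATGCGC, that of Gtf3c2 one to CCGGAAG, and that of Gtf3c6 one to CCGGAAG and one to TATAAA. Of the 19 promoters, 4 held CCGGAAG, 1 held GCATGCGC and 1 held TATAAA. A match describes the letters only.

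The particle that carries 5S rRNA into the ribosome had 3 of 5 genes called. Rpl5 and Rpl11, whose proteins bind 5S rRNA, had low peaks, with folds of 1.94 and 1.84 at Rpl5 and 1.21 and 2.15 at Rpl11. Heatr3, which assists import of this particle, had 3.21 and 2.56. Rpf2, an assembly factor, had a peak in replicate 1 alone, and it is the peak of replicate 1 that lies at the other end of its neighbour Gtf3c6. Rrs1 had none.

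Of 13 genes of RNA polymerase I and its factors, 4 were called: Polr1a (1.64 and 3.83), which encodes the largest subunit, Znrd1 (2.39 and 2.61), Rrn3 (2.01 and 2.30), an initiation factor, and Taf1d (1.98 and 1.35). The peaks of Taf1d, on chromosome 9, joined low folds to high −log10 q (42.4 and 9.44). Ubtf, which encodes the architectural factor of rDNA, had no gene-end peak. Of 7 subunits shared between polymerases only Polr1d was called (2.22 and 2.60). Of 18 processing and nucleolar genes 6 were called, among them Nop56 (2.24 and 4.55), Nop58 (1.95 and 3.01) and Gar1 (2.18 and 2.38). Ncl, which encodes nucleolin, had overlapping peaks at its high-coordinate end (2.15 and 1.97) and a peak of replicate 2 alone at the other (2.13). Fbl had overlapping peaks at its low-coordinate end (1.71 and 2.39) and a peak of replicate 1 alone at the other (2.12). The peaks of Utp3 (2.27 and 2.35) lay at the same end without overlapping. Fbl encodes the methyltransferase fibrillarin, and Nop56 and Nop58 its partners in box C/D particles. Npm1, which encodes nucleophosmin, had a peak in replicate 1 alone (1.98).

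**Figure D5:**
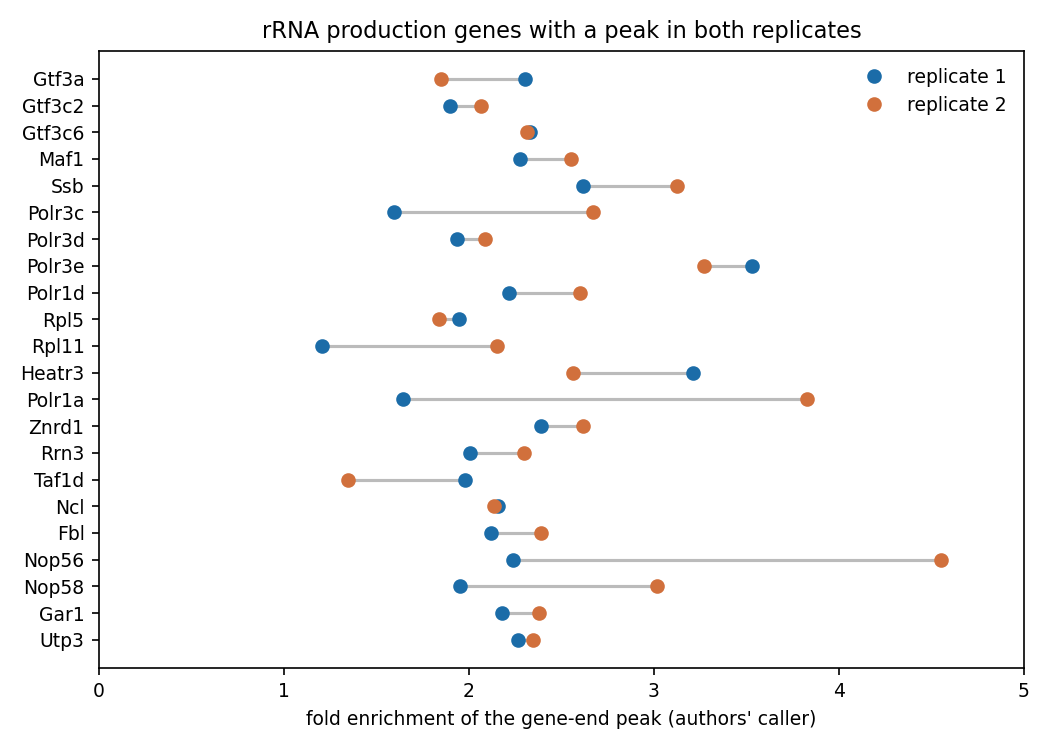
Fold enrichment of the gene-end peak of smallest p (x axis, the authors' ratio) in replicate 1 (blue) and replicate 2 (orange) for the 22 called genes of rRNA production (rows). Folds run from 1.21 to 3.53 in replicate 1 and from 1.35 to 4.55 in replicate 2, and a grey line joins the replicates of a gene. In 18 of the 22 genes the plotted peaks overlap, and in 4 (Gtf3c6, Ncl, Fbl and Utp3) they lie apart.

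Over the 22 called genes the median fold of the gene-end peak of smallest p was 2.17 in replicate 1 and 2.38 in replicate 2, close to the medians of all peaks (2.18 and 2.31). These sets are unlike, since the gene-end peaks were picked by p in genes called in both replicates and the lists were not. The medians of the array peaks were 2.33 and 2.43.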

How the data were processed

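The files are lists of H3K27ac peaks, 1 per replicate. Per the submitters' processing notes, Bowtie2 alignment to mm10 preceded peak calling by MACS 1.4.2, although the broad-peak layout is that of MACS2. Each list names its own library and rmdup in its peaks: replicates were called separately, with duplicate reads removed. Neither the cutoff nor any control is stated in the sources used here. Fold enrichment (a ratio), −log10 p and −log10 q are the values the authors deposited. The score that the authors deposited was not used. The files hold no read counts, so depth per sample is unknown and no interval can be given.

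Peaks on chromosomes 1 to 19 and X were placed against a RefSeq gene table of GRCm38.p6, with coordinates counted from 1. An rRNA gene was called when each replicate had a peak within 1 kb of the gene. The table gives no strand, so coding genes were read within 1 kb of either annotated end. Rows of separately numbered scaffolds were left out. No statistical test was made. Genes were named by rule: called genes outside the range, up to 15 members with a peak of 1 replicate (all 16 are given), the first and last array copy, the coding gene beside the array (that on its other side is not reported here), Rn4.5s and Rn28s1, and called production genes. Other named genes, the dispersed copies among them, were chosen after their values were seen. Members, lists and rules were chosen with earlier results of these data known. The interval functions were checked on simulated data. Python 3.11.15, pandas 2.3.3, numpy 2.4.6 and matplotlib 3.10.9 were used. Alternatives are in the closing section.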

Additional observations from a re-analysis of the deposited data

How the results depend on the processing

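The main counts of genes with a peak of each replicate within 1 kb were 32 of 62 rRNA genes, 26 of 41 in the range of the rule, 6 of 21 outside it (5 array copies and Rn4.5s) and 22 of 66 production genes. With only peaks that overlap the gene (or, for production genes, its end) they were 9, 7, 2 and 7. A window of 2.5 kb gave 40 in the range, and windows of 5 kb and 10 kb gave 41 there and 49 of all rRNA genes. Among genes of at most 200 bp the share was 6.92% at 2.5 kb and 9.57% at 5 kb, and it was not computed at 10 kb. These windows exceed the spacing of the copies, so a single peak is counted for several of them. With q of at most 0.05 the main counts became 3, 2, 1 and 3, and with q of at most 1e-05 they became 0, 0, 0 and 1. At q of at most 0.05 the share of genes of at most 200 bp was 0.435%, and at q of at most 1e-05 it was 0.0414%. At so low a share, counts of 0 do not set the rRNA genes apart. A peak in either replicate gave 40 in the range and 44 production genes. Peaks sharing at least 0.5 of the shorter one gave 19 of all and 14 in the range, where the share of genes of at most 200 bp was 3.73%. Leaving out a replicate gave 39 to 41 for all rRNA genes, 33 to 33 in the range, 6 to 8 outside it and 30 to 36 for production genes. For the production genes, the share of protein-coding genes under these alternative settings is not given here. Chosen after seeing the data, genes outside the range without the 7 array copies gave 1 of 14. Counting members within 2 kb of each other once gave 4 of 17 sites, or 2 of 15 outside the range; the spacings that hold pseudogenes split the array into 3 of the 17 sites, all called. The dispersed 5S copies had 0 of 13 called under each other window, threshold, overlap and replicate setting above. The cause of these changes was not tested. Dropping chromosomes 6, 9, 14 and 17, or asking for 1 bp of overlap between the replicates' peaks, moved no count by over 1.5 times. Depth is unknown, so how far it limits these counts cannot be said. No paired analysis was possible because a single group has files.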
